A study of Mus musculus with 21 samples.

Results

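Nnt and 6 antioxidant genes whose proteins act in mitochondria (Sod2, Prdx3, Prdx5, Txn2, Txnrd2 and Gpx4) were followed in the mouse heart. They were chosen by gene symbol in the deposited gene matrix and are 7 of its 19096 genes. The symbol Nnt stands there for 2 gene identifiers, whose reads were added together. All 7 genes passed the filter on low counts and were among 15215 genes tested.

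The study measured RNA from freeze-clamped hearts of male C57BL/6NJ mice that entered at 8 to 10 weeks of age, in a model of HFpEF (heart failure in which the ejection fraction is preserved) and in each of its components alone. For 10 weeks they ate chow or a high-fat diet (HFD) in which fat gave 60% of the calories. Hearts were taken 6 weeks after AAV-Renin, an adeno-associated virus with the gene for the blood pressure enzyme renin, or an empty (null) vector was injected behind the eye. Chow control (n = 4) and HFD control (n = 6) received the null vector on the respective diet, and chow renin (n = 6) and HFD renin (n = 5) received AAV-Renin. Sample labels call both null vector groups novirus, and the promoter of the renin vector is not given in the sources used here. Nothing in the labels says that hearts were pooled, and p-values measure the spread between these samples.

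Mitochondrial respiration releases superoxide, which superoxide dismutase turns into hydrogen peroxide. Peroxiredoxins of the mitochondrion reduce the peroxide with electrons from thioredoxin, which thioredoxin reductase renews from NADPH. Nicotinamide nucleotide transhydrogenase, encoded by Nnt, uses the proton gradient of the inner membrane to make that NADPH from NADH, so it stands at the supply end of the chain. C57BL/6J mice, the source of the mouse reference genome, lack several Nnt exons, whereas the C57BL/6N substrains carry the intact gene. Gene models drawn on that reference lack those exons, and reads from them were not analysed here.

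Depth ranged from 18.6 to 29.0 M estimated reads per library, of which mitochondrially encoded genes took 29.8% to 38.2%. Chow control libraries were the shallowest, with at most 21.2 M reads, and the others had at least 22.6 M reads. All 6 cardiomyocyte markers (Myh6, Tnnt2, Tnni3, Actc1, Ryr2, Myl2) were detected in every library, with a summed level of 49483 to 60485 CPM (read counts scaled to library size, TMM-normalized) in chow control, 45267 to 48397 in chow renin, 47224 to 54609 in HFD control and 39762 to 46666 in HFD renin. Central neuron markers (8 of 8) and oligodendrocyte markers (6 of 6) were called higher in chow renin against chow control, and lower in HFD renin against chow renin and in the interaction. Of 6 astrocyte markers, 3 were called higher in the first of these and 4 lower in each of the others. Gja1, on the astrocyte list, had a lower mean in chow renin (277.9 CPM) than in chow control (353.5 CPM). Of the 6 cardiomyocyte markers, 4 were called lower in HFD renin against each other group (1 higher against chow renin) and 2 lower in chow renin against chow control. They moved with the lower Nnt, Prdx5, Sod2 and Txn2 values, and their part in those was not tested. The neuron list summed to 166.8 to 276.1 CPM in the 6 chow renin libraries and to 53.8 to 94.99 CPM in the other groups, and none of its genes was at 0 in any library. A clock score, the mean log2 level of Dbp, Tef, Per1, Per2, Per3, Nr1d1, Nr1d2 and Ciart minus that of Arntl, Npas2, Clock and Nfil3, whose RNAs peak at opposite times of day, was 3.67 to 4.02 in chow control, 3.44 to 3.77 in HFD control, 3.16 to 3.47 in chow renin and 2.39 to 3.47 in HFD renin. Over all libraries the 5 atrial markers (Myl7, Sln, Myl4, Nppa, Bmp10) summed to 31.0 to 1103 CPM. In HFD renin against HFD control, 1 of the 4 tested was called higher. Between HFD control and HFD renin, mean Nppa was 104.1 and 551.3 CPM, Myl7 38.5 and 34.1, Myl4 40.5 and 38.7 and Sln 10.3 and 11.1. The part of atrial tissue in the values of the 7 genes was not tested. In bulk tissue, fewer cells of a type and less RNA per cell cannot be told apart.

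The sequences that separate the forms of Nnt and of Gpx4 are shown first. The split of reads between transcripts depends on such differences, while the counts tested are sums over each gene. Nnt lies on chromosome 13, minus strand, at chr13:119335448-119408997 (GRCm38) as ENSMUSG00000025453 and at chr13:119335528-119408952 as ENSMUSG00000116207. The main transcript of the first, Nnt-202, and the single transcript of the second, Nnt-206, have 17 exons each and differ by 45 bases at the 5′ end and 80 at the 3′ end. Between these transcripts, 125 bases decide where a read is placed. Nnt-201, also of the first gene, lacks exons 8 (chr13:119374629-119374774) and 9 (chr13:119372396-119372591) of Nnt-202, which hold 342 coding bases. In the 3 junctions below, read from the GENCODE transcripts, small letters are the 20 bases before the junction and capitals the 20 bases after it.
Nnt-201, exon 7 to exon 10: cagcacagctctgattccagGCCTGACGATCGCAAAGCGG
Nnt-202, exon 7 to exon 8: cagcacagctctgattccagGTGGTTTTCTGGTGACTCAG
Nnt-202, exon 9 to exon 10: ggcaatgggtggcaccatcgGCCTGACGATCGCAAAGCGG

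Gpx4 has a mitochondrial, a cytosolic and a nuclear protein form. Gpx4-202, with 97.8% ± 0.506 of the gene's reads (SD, n = 21), opens its coding sequence at base 80053632 of chromosome 10 (GRCm38, plus strand) and holds a second start codon in the same frame 27 codons on. Starts at the first and the second codon give the mitochondrial and the cytosolic form from the same RNA, so RNA counts do not separate these proteins. Gpx4-201 begins in another first exon and encodes the nuclear form, at chr10:80054049-80054108 for the bases shown. Capitals mark the start codons.
Gpx4-202, coding start: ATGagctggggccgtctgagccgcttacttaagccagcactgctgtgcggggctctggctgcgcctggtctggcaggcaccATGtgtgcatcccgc
Gpx4-201, coding start: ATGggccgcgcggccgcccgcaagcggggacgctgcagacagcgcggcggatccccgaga

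Per unit of transcript length (TPM), Gpx4 was the most abundant of the 7 genes and Txnrd2 the least. Mean levels over 21 libraries were 354.7 ± 33.2 TPM for Gpx4, 297.9 ± 16.3 for Sod2, 222.6 ± 37.4 for Nnt, 211.9 ± 19.9 for Prdx5, 127.7 ± 4.08 for Prdx3, 94.8 ± 6.65 for Txn2 and 9.57 ± 1.11 for Txnrd2. Each gene stood above the next in all 21 libraries, with 2 exceptions. Gpx4 exceeded Sod2 in 20 libraries, and Nnt exceeded Prdx5 in only 15, so the order of Nnt and Prdx5 was not settled. Prdx3, the peroxiredoxin of the matrix, was present at 1.35 ± 0.0964 times the TPM of Txn2, its thioredoxin. Txn2 in turn stood at 9.99 ± 0.964 times the TPM of Txnrd2, the reductase that renews it.

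On the high-fat diet alone, no gene of the 7 was called. In HFD control against chow control, 0 of 7 were called by edgeR's quasi-likelihood test at an adjusted p under 0.05, where 0.0657% of all genes tested were called. None had an unadjusted p under 0.05 either, and DESeq2 also called 0. The log2 fold changes ran from -0.13 for Nnt to 0.07 for Prdx5, with a median of 0.01 that equals the 0.01 of all genes. The comparisons that follow share the chow control or the HFD renin hearts, so their values stand side by side and are not independent.

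Chow renin against chow control had 2 of the 7 genes called lower, Sod2 and Txn2, and none higher, where 13.5% of all genes were called. All 7 log2 fold changes were below 0, as were 55.6% of those of all genes, with a median of -0.13 for the 7 genes and -0.03 for all (-0.07 for genes of at least 20 CPM). HFD renin against HFD control had 1 of 7 called lower, Prdx5, where 11.1% of genes were called. The combined model, HFD renin against chow control, also had 1 of 7 lower, Nnt, where 8.33% were called. Between the renin groups, Nnt was lower and Gpx4 higher on the high-fat diet, 2 of 7 where 22.6% of genes were called. No gene of the 7 was called for the interaction, the difference between the renin effects of the 2 diets (HFD minus chow), where 10.4% of genes were called. For that term 1 of 7, Txn2, had an unadjusted p under 0.05, and DESeq2 called 0. Counts of 0 to 2 in 7 are close to these backgrounds and single out no comparison.

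**Figure D1:**
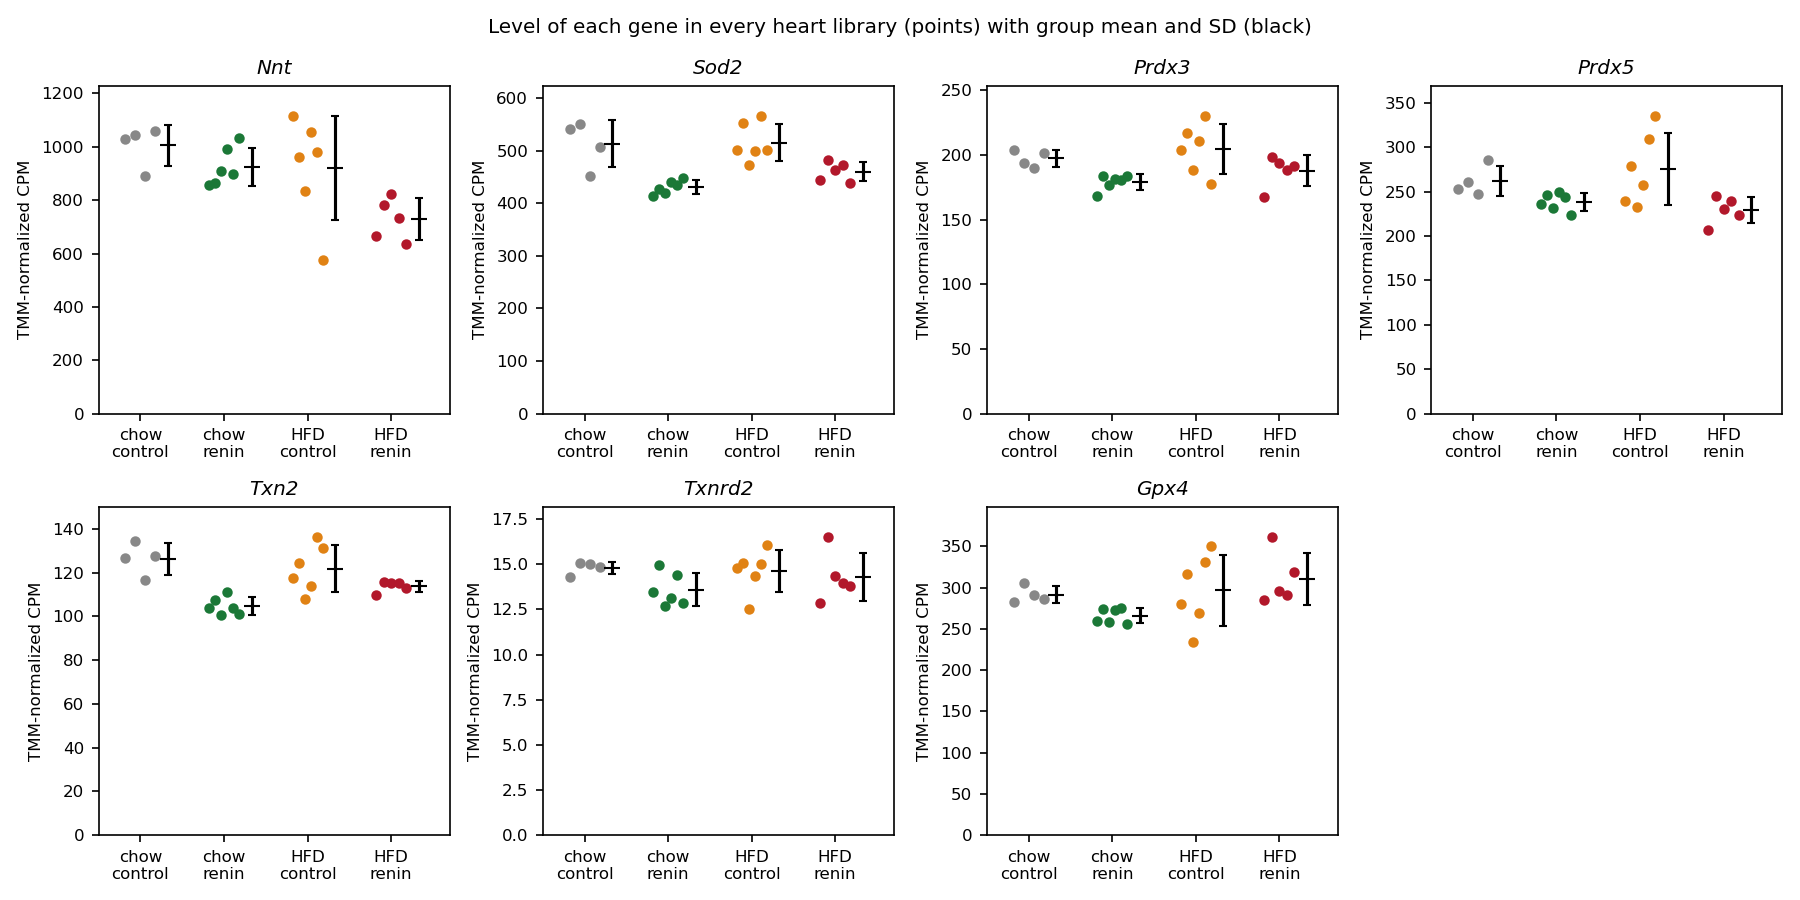
TMM-normalized CPM (y axis, from 0) of each gene in the 21 heart libraries, by group (x axis). Points are libraries and black bars are group means with SD. All 5 HFD renin libraries lie below the 4 chow control libraries for Nnt, Prdx5 and Txn2, and 1 HFD control library lies at 575.7 CPM for Nnt. The 6 chow renin libraries lie below the 4 chow control libraries for Sod2, Prdx3, Txn2 and Gpx4, of which only Sod2 and Txn2 were called.

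Nnt, the transhydrogenase, had the widest range of the 7 genes. In chow control it stood at 1029, 1045, 890.6 and 1059 CPM, and in HFD renin at 664.7, 783.7, 822.3, 733.7 and 634.6 CPM. Chow renin ran from 856.9 through a median of 902.7 to 1032 CPM, and HFD control from 575.7 through 970.0 to 1116 CPM. Every HFD renin heart was below every chow control and every chow renin heart, while HFD control spanned both. The same held in TPM, with at most 206.2 in HFD renin and at least 225.3 in the chow groups.

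Against chow control, Nnt fell by 0.47 ± 0.13 on the log2 scale in HFD renin (SE, edgeR adjusted p = 0.027, means 727.8 ± 78.7 and 1005.8 ± 77.8 CPM). Against chow renin it fell by 0.35 ± 0.12 (edgeR adjusted p = 0.035). Against HFD control the difference was -0.34 ± 0.12, which missed the threshold (edgeR adjusted p = 0.063), and 5 of 6 HFD control libraries were above all 5 HFD renin libraries. Without HFD control 6 it was -0.44 with an adjusted p of 0.0028, and without HFD renin 3 the adjusted p was 0.044. DESeq2 (0.033), upper-quartile factors (0.048) and a minimum of 20 CPM (0.031) also gave a call there. Chow renin differed from chow control by -0.12 ± 0.12 (edgeR adjusted p = 0.62). The difference between the effects of renin on the 2 diets was -0.22 ± 0.17 (edgeR adjusted p = 0.49), so a dependence on diet was not shown.

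Both calls for Nnt were close to the threshold, while the size of the difference moved less. With a library left out, the log2 fold change stayed at -0.52 to -0.42 against chow control and at -0.39 to -0.30 against chow renin. Leaving out chow control 1, 2 or 4, or HFD renin 1 or 5, raised the adjusted p against chow control to between 0.070 and 0.084, and leaving out chow renin 4 or 6, or HFD renin 1, 4 or 5, raised that against chow renin to between 0.052 and 0.10. The clock score, which was lowest in HFD renin, moved with the group, and with it as a covariate neither call held (log2 differences -0.34 and -0.32, adjusted p = 0.81 and 0.088). Its part in the result was not tested. The call against chow renin was also lost with a nervous tissue score as covariate (-0.39, adjusted p = 0.996) and without a low-count filter (-0.36, 0.053).

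The split of Nnt reads between the 2 gene identifiers varied far more than their sum. ENSMUSG00000116207 took 19.1%, 21.02%, 31.1% and 22.1% of Nnt reads in chow control, and 2.12%, 2.65%, 14.6%, 26.6% and 13.1% in HFD renin. Chow renin ran from 15.1% through a median of 22.3% to 28.2%, and HFD control from 12.9% through 24.7% to 68.5%. HFD renin overlapped both chow groups only through its replicate 4, and overlapped HFD control more widely. Over the 5 pairs of groups, a two-sided exact permutation test gave adjusted p-values of 0.15 for HFD renin against each other group, 0.70 for chow renin and 0.73 for HFD control against chow control. Without HFD renin 4, the library that made that overlap with the chow groups, the first 3 were each 0.048. No other library left out brought any of them under the threshold. Taken alone, this gene stood at 86.6 ± 75.0 CPM in HFD renin and 231.8 ± 33.8 CPM in chow control, while ENSMUSG00000025453 stood at 641.2 ± 96.5 and 774.0 ± 107.1 CPM. With the 2 genes kept apart, the larger one was not called in HFD renin against chow control (log2 fold change -0.27, edgeR adjusted p = 0.61) or against chow renin (-0.18, 0.67), and against HFD control its difference was -0.07 (0.90). The smaller one, whose fitted differences are not given here, stood at 196.3 ± 46.0 CPM in chow renin and 247.8 ± 92.3 CPM in HFD control. In the authors' deposited table the log2 fold change for the high-fat diet with virus was -0.30 for ENSMUSG00000116207 (adjusted p = 0.074) and -0.07 for ENSMUSG00000025453 (adjusted p = 0.62), with the reference group not stated.

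HFD control replicate 6 stood apart at the transcript level. It had 1024 reads on Nnt-202, the fewest of any library where the median was 15415, and its 8992 reads on Nnt-206 were the most. Its share of the 3 main transcripts on Nnt-201, the form joined across exons 8 and 9, was 23.5%, where the other 5 libraries of that group had 4.38% to 7.94%. In the other groups this share ran from 3.12% to 10.3%. Across 5560 genes of at least 20 CPM, the same library had the most negative correlation between a gene's log2 deviation from its mean and its effective length (Spearman rho = -0.43). In HFD renin that correlation was 0.27, 0.17, 0.14, -0.06 and 0.22. The part of transcript length in the Nnt values was not tested, and with effective-length offsets Nnt was called in the same comparisons.

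**Figure D2:**
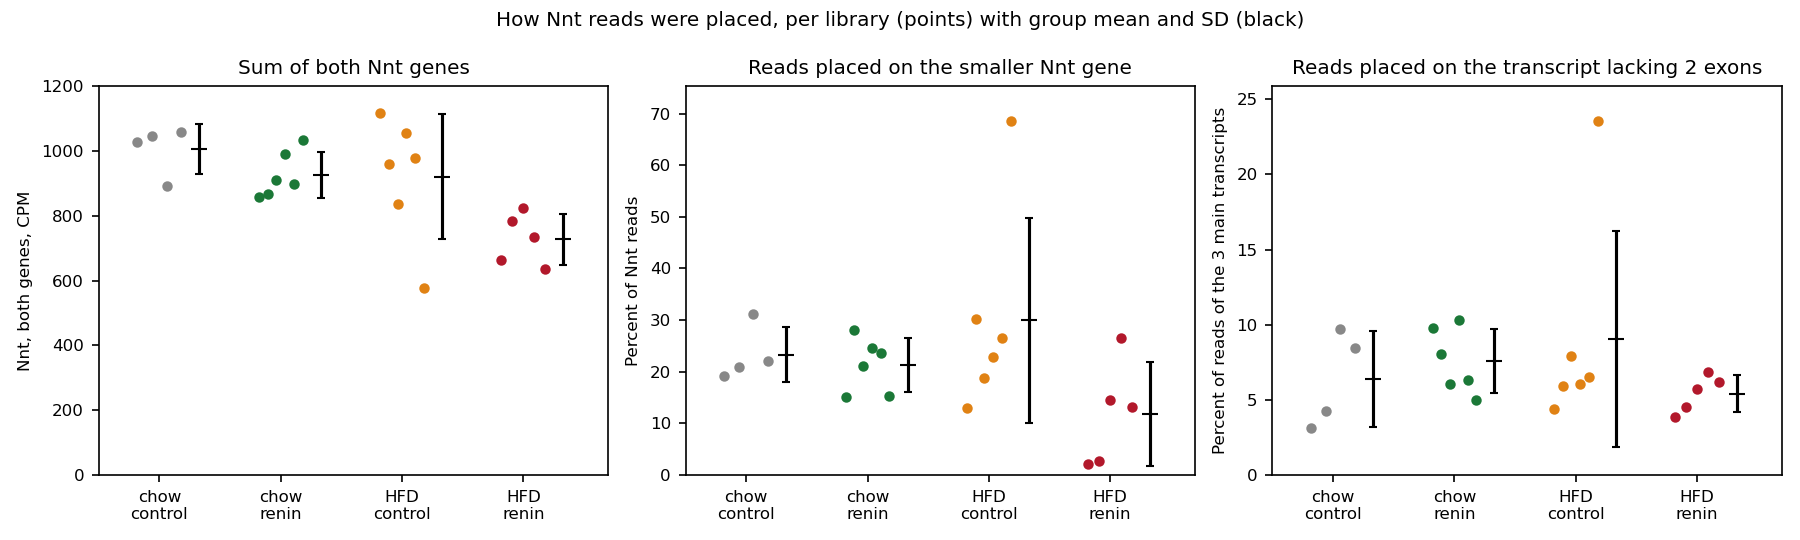
Left, CPM of both Nnt genes summed; middle, percent of Nnt reads on ENSMUSG00000116207; right, percent of reads of the 3 main transcripts on Nnt-201, for each of 21 libraries by group (x axis), with group mean and SD in black. HFD control replicate 6 has the lowest sum, 575.7 CPM, and the highest value of both shares, 68.5% and 23.5%.

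Sod2, the manganese superoxide dismutase of the matrix (chr17:13006846-13040063, plus strand), was lower in chow renin. It stood at 542.1, 551.9, 452.3 and 507.9 CPM in chow control and at 413.3 to 449.0 CPM, with a median of 431.4, in chow renin, so the 2 groups did not overlap in CPM. In TPM, which was not TMM-normalized, they did overlap and lay closer, at 316.8 ± 23.4 in chow control and 294.0 ± 6.61 in chow renin. HFD control ran from 473.5 through 501.6 to 566.8 CPM, and HFD renin stood at 444.0, 481.7, 463.5, 473.5 and 439.1 CPM. Sod2 fell by 0.25 ± 0.06 on the log2 scale in chow renin against chow control (edgeR adjusted p = 0.0061). The differences of HFD renin from chow control (-0.16 ± 0.07) and from HFD control (-0.16 ± 0.06) missed the threshold (edgeR adjusted p = 0.14 and 0.072). The first was called without chow control 3 (adjusted p = 0.044), and the second by DESeq2 (0.027), with upper-quartile factors (0.041) and with a minimum of 20 CPM (0.019). Of the Sod2 reads, 62.3% were placed on the main coding transcript, and 22.3% and 14.2% on a pair of transcripts annotated as non-coding.

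Txn2, the mitochondrial thioredoxin (chr15:77915047-77929006, minus strand), had the lowest adjusted p of the 7 genes. It stood at 126.8, 134.3, 116.5 and 127.6 CPM in chow control and at 100.4 to 111.2 CPM, median 103.9, in chow renin, with no overlap, nor in TPM (at least 100.6 and at most 96.6). In HFD renin it held a narrow band of 109.5, 115.6, 115.1, 115.3 and 113.0 CPM, also below every chow control heart, and HFD control ran from 108.0 through 121.0 to 136.1 CPM. Txn2 fell by 0.27 ± 0.06 in chow renin against chow control (edgeR adjusted p = 0.0022), while in HFD renin the difference was -0.15 ± 0.06 (edgeR adjusted p = 0.14). The interaction was 0.17 ± 0.08 (edgeR adjusted p = 0.21).

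The calls for Sod2 and Txn2 shared their libraries with the neuron and oligodendrocyte markers, which were high in all 6 chow renin hearts, and with a lower clock score. With the nervous tissue score, the mean log2 level of central neuron, oligodendrocyte and astrocyte markers, as covariate the differences were -0.17 for Sod2 and -0.18 for Txn2 (adjusted p = 0.84 and 0.81). With the clock score they were -0.21 and -0.24 (adjusted p = 0.17 and 0.098), and the part of either in the result was not tested. Txn2 was called whichever library was left out, whereas Sod2 was not without chow control 1 or 2 (adjusted p = 0.052 and 0.062) or with a minimum of 20 CPM (0.069). The log2 fold change of Sod2 was then -0.22, -0.21 and -0.18.

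Txnrd2, the selenoprotein that reduces Txn2 (chr16:18426384-18479073, plus strand), was called in no comparison. It stood at 14.3, 15.1, 15.0 and 14.8 CPM in chow control and at 12.9, 16.5, 14.4, 14.0 and 13.8 CPM in HFD renin. Chow renin had 12.7 to 15.0 CPM, median 13.3, and HFD control 12.5 to 16.0, median 14.9, so all groups overlapped. Its largest difference was -0.12 ± 0.08, in chow renin against chow control (edgeR adjusted p = 0.36). The strand setting of the counting is not given in the sources used here.

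Prdx3, the peroxiredoxin of the mitochondrial matrix (chr19:60864051-60874556, minus strand), varied little. It stood at 203.5, 193.9, 189.9 and 201.9 CPM in chow control, and chow renin, at 168.5 to 183.9 CPM with a median of 181.2, lay wholly below. In TPM these groups overlapped (130.1 to 133.4 in chow control and 127.2 to 132.4 in chow renin). HFD control ran from 177.9 through 207.04 to 230.3 CPM, and HFD renin stood at 167.3, 198.3, 193.8, 188.1 and 191.2 CPM. The difference in chow renin, -0.14 ± 0.06, missed the threshold (edgeR adjusted p = 0.17) despite the separation of the groups in CPM. Those in HFD renin were -0.07 ± 0.07 against chow control and -0.12 ± 0.06 against HFD control (edgeR adjusted p = 0.55 and 0.19).

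Prdx5, a peroxiredoxin found in mitochondria, peroxisomes and cytosol (chr19:6906697-6910106, minus strand), was lower in HFD renin than in HFD control. It stood at 206.9, 245.7, 230.5, 239.8 and 223.7 CPM in HFD renin, and HFD control ran from 232.6 through 268.3 to 335.5 CPM, so the groups overlapped. Chow control had 253.4, 260.9, 247.5 and 285.7 CPM, all above HFD renin, and chow renin 223.4 to 250.1 CPM, median 240.1. Prdx5 fell by 0.26 ± 0.08 in HFD renin against HFD control (edgeR adjusted p = 0.032), and against chow control the difference was -0.19 ± 0.09 (edgeR adjusted p = 0.18). In TPM the means lay closer, 195.5 ± 3.61 in HFD renin and 213.8 ± 32.0 in HFD control, where replicate 6 had 277.8 TPM and the median was 199.3. Its 2 highest libraries in CPM, HFD control 5 and 6, had the most negative correlations with effective length of all libraries (rho = -0.37 and -0.43). The adjusted p rose to 0.072 and 0.066 without either, to 0.052 without HFD control 2, to 0.094 and 0.079 without HFD renin 1 or 5, to 0.054 with effective-length offsets and to 0.80 with the clock score. The log2 fold change was -0.26 with the offsets, -0.18 with the clock score and -0.31 to -0.20 with a library left out. The part of transcript length or of the clock score in the difference was not tested.

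Gpx4, the glutathione peroxidase that reduces lipid peroxides in membranes (chr10:80047166-80056439, plus strand), was the only one of the 7 called higher in any comparison. It stood at 285.0, 361.1, 296.1, 291.6 and 318.6 CPM in HFD renin and at 256.4 to 275.2 CPM, median 266.3, in chow renin, with no overlap, whereas in TPM they overlapped (344.2 to 421.3 and 332.1 to 361.3). Chow control had 283.0, 306.0, 290.8 and 285.8 CPM, also above all chow renin hearts, though in TPM it overlapped them (339.9 to 374.3 in chow control). HFD control spread from 234.5 through 298.3 to 350.1 CPM. Gpx4 rose by 0.22 ± 0.08 in HFD renin against chow renin (edgeR adjusted p = 0.049). Against chow control it differed by 0.09 ± 0.09 in HFD renin and by -0.13 ± 0.09 in chow renin (edgeR adjusted p = 0.57 and 0.38). The call was lost on leaving out any single library of either renin group except HFD renin 4 (adjusted p up to 0.18), and the nervous tissue score, high in chow renin, took the difference to 0.08 (adjusted p = 0.997). Upper-quartile factors (0.15), a minimum of 20 CPM (0.18), no low-count filter (0.078) and 3 other settings also ended it. The log2 fold change stayed at 0.16 to 0.24 with a library left out, and was 0.17, 0.15 and 0.21 under the 3 named settings.

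The nuclear transcript Gpx4-201 kept a small share of Gpx4 in every group. In TPM the control hearts had 1.28% ± 0.445 on chow (n = 4) and 1.11% ± 0.180 on HFD (n = 6), and the renin hearts 1.28% ± 0.183 on chow (n = 6) and 1.24% ± 0.225 on HFD (n = 5). No pair of groups differed by the two-sided exact permutation test, with adjusted p = 0.96 for all 5 pairs. The differences ran from -0.17 to 0.14 percentage points, and single libraries from 0.754% to 1.84%. The processed pseudogene Gpx4-ps2 had at most 0.240 CPM in a library.

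**Figure D3:**
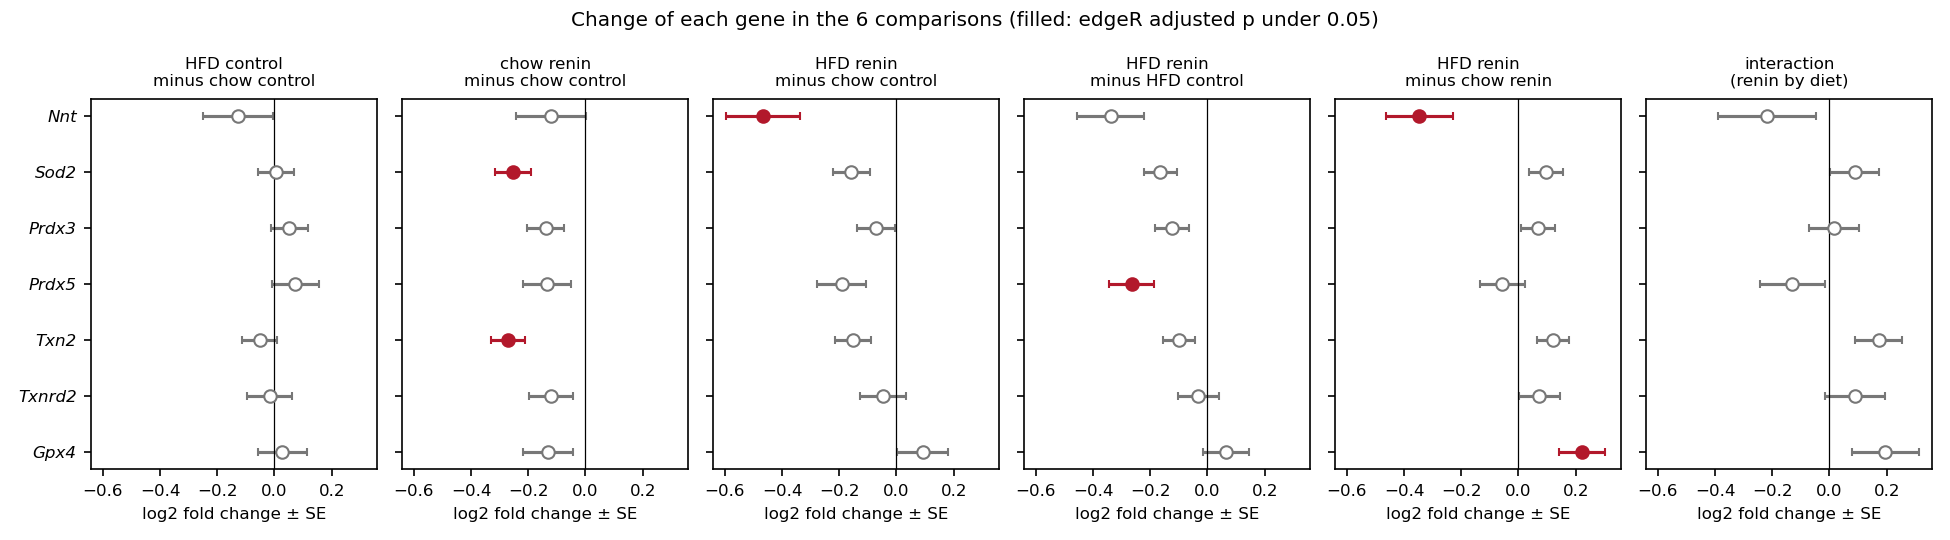
Log2 fold change (x axis, bars are SE) of the 7 genes in the 6 comparisons of the fit over 21 libraries; filled red points have an edgeR adjusted p under 0.05. Nnt has the largest differences, -0.47 and -0.35, and Gpx4 is the only filled point above 0, at 0.22.

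Nuclear-encoded subunits of oxidative phosphorylation, the enzymes beside which these proteins work, gave the background of the mitochondrial transcriptome. Of 26 such genes, 21 were called lower and 0 higher in HFD renin against HFD control, 11 lower in HFD renin and 6 lower in chow renin against chow control, and 0 between the renin groups. Of all genes, 11.1%, 8.33%, 13.5% and 22.6% were called in either direction. Median log2 fold changes were -0.26, -0.22, -0.17 and -0.04. That list was chosen with results of these libraries known and is not independent evidence of its direction. With the clock score as covariate, 0 of 15215 genes were called in HFD renin against either control group. This applies to these subunits and to the lists below, and the part of the clock score was not tested.

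The 7 genes were also set against the mean log2 level of those subunits in each library. This description was chosen after the values were seen and carries no test. Relative to the subunits, Nnt was lower in HFD renin than in chow control by -0.25, without overlap between the groups. The other 6 genes were higher, by 0.31 for Gpx4, 0.17 for Txnrd2, 0.15 for Prdx3, 0.07 for Txn2, 0.07 for Sod2 and 0.03 for Prdx5, and the groups did not overlap for Gpx4 and Prdx3. Against chow renin, Nnt was lower by -0.31 without overlap, Prdx5 stood at -0.01, and the other 5 lay between 0.11 for Prdx3 and Txnrd2 and 0.26 for Gpx4. The groups did not overlap for Sod2, Txn2 and Gpx4 either. Against HFD control the mean difference of Nnt was -0.06, but that mean holds replicate 6 at 0.04, where the other 5 libraries stood at 0.75 to 1.15 and HFD renin at 0.57 to 0.84. The other 6 genes lay between 0.0040 for Prdx5 and 0.33 for Gpx4, and the groups did not overlap for Txn2 and Txnrd2. How many of all genes separate in this way is not given here. In chow renin against chow control the 7 differences lay between -0.09 for Txn2 and 0.06 for Nnt.

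**Figure D4:**
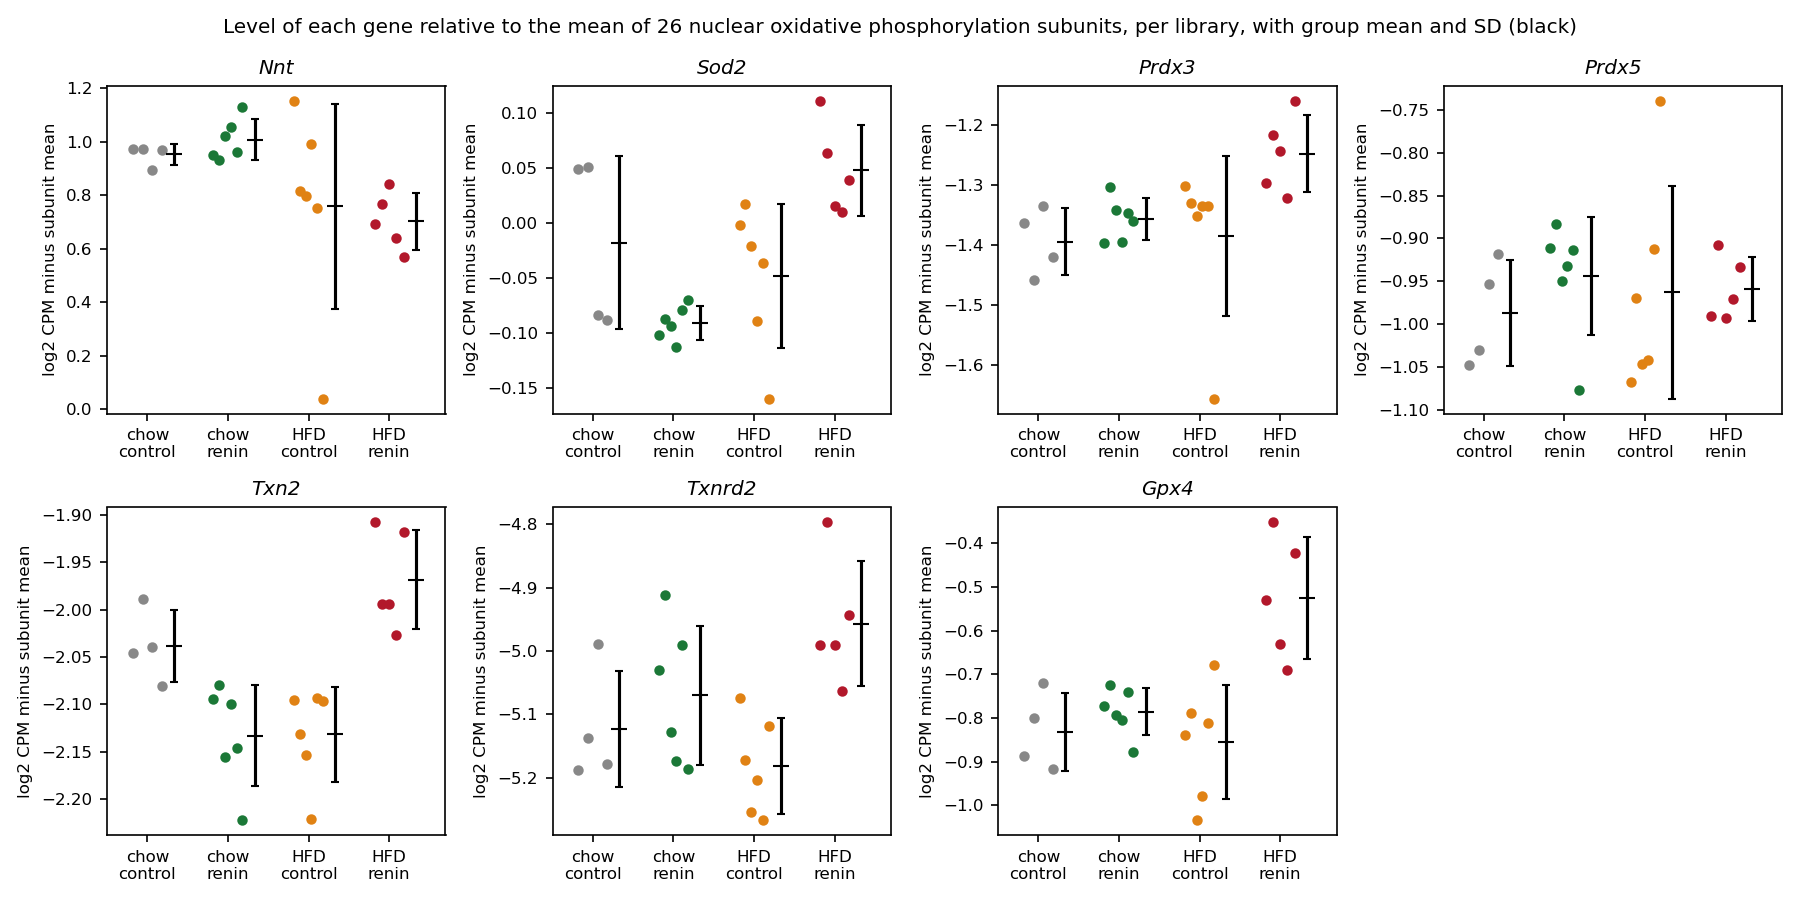
Log2 CPM of each gene minus the mean log2 CPM of 26 nuclear oxidative phosphorylation subunits in the same library (y axis, own scale per panel), by group (x axis), with group mean and SD in black. Against chow control, HFD renin is lower for Nnt, by -0.25, and higher for Gpx4, by 0.31.

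Other genes of mitochondrial NADPH and folate metabolism were called in both directions. The list holds enzymes that make NADPH and others beside them in the pathway, such as Nadk2, which makes NADP+, and Mthfd1l, which does not make NADPH. Idh2, the mitochondrial isocitrate dehydrogenase that makes NADPH, stood at 1759 ± 190.3 CPM in chow control and 1619 ± 276.9 CPM in HFD renin, a log2 difference of -0.12 that missed the threshold. Of 9 genes of this list, those called against chow control were 2 higher and 0 lower for chow renin, and 1 and 1 for HFD renin. The counts were 2 and 3 in HFD renin against HFD control, 0 and 3 between the renin groups, and 0 in HFD control against chow control. With 9 genes these counts stand beside 13.5%, 8.33%, 11.1%, 22.6% and 0.0657% of all genes. Mthfd2, a folate enzyme of the mitochondrion, rose by 1.25 in chow renin and by 1.26 in HFD renin against chow control, from a low 3.13 ± 0.507 CPM to 7.45 ± 0.688 and 7.48 ± 1.85 CPM (edgeR). Mthfd1l, which follows it in the folate pathway, rose by 0.89 in chow renin. In HFD renin against HFD control, Mthfd2 rose by 0.64, Me2, a malic enzyme, rose by 0.63 (6.99 ± 0.424 to 10.8 ± 2.47 CPM), Me3, the other mitochondrial malic enzyme, named after its values were seen, fell by 0.40 (73.1 ± 5.38 to 55.2 ± 10.5 CPM) and Aldh1l2, a folate enzyme that yields NADPH, fell by 0.77. Nadk2, the mitochondrial NAD kinase, fell by 0.52 in that comparison and had an interaction of -0.48 (edgeR adjusted p = 0.034), and the interaction of Aldh1l2 was -1.19 (edgeR adjusted p = 0.015). Between the renin groups, Mthfd1l was lower by -0.88, Aldh1l2 by -0.61 and Glud1, the glutamate dehydrogenase, by -0.21, and Glud1 fell by 0.28 in HFD renin against chow control.

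The glutathione and repair genes of mitochondria mostly missed the threshold. Of 15 such genes, those called against chow control were 1 higher and 2 lower for HFD renin, and 0 and 1 for chow renin. The counts were 0 and 2 in HFD renin against HFD control, and 2 and 1 between the renin groups. The shares of all genes called were 8.33%, 13.5%, 11.1% and 22.6%. Gstk1, a glutathione transferase of mitochondria and peroxisomes, fell by 0.69 ± 0.10 in HFD renin against chow control, by 0.61 against HFD control and by 0.42 against chow renin. The calls against the control groups did not hold with the clock score as covariate. Slc25a11, the oxoglutarate carrier, fell by 0.21 in each renin group against chow control. Msra, a methionine sulfoxide reductase, rose by 0.27 in HFD renin against chow control and by 0.24 against chow renin, Msrb3 rose by 0.46 against chow renin (interaction 0.41, edgeR adjusted p = 0.029), and Msrb2 fell by 0.23 against HFD control. Gsr (glutathione reductase), Glrx2 (glutaredoxin) and Gpx1 (glutathione peroxidase) were called in no comparison, with 24.1 ± 2.7, 21.7 ± 2.9 and 40.6 ± 5.2 CPM in HFD renin against 20.4 ± 2.0, 22.7 ± 2.3 and 35.4 ± 8.0 CPM in chow control.

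In every comparison, most antioxidant genes of other compartments missed the threshold. Of 20, 3 were called higher and 0 lower against chow control in each renin group and in HFD renin against HFD control, and 3 and 1 between the renin groups. Of all genes, 8.33%, 13.5%, 11.1% and 22.6% were called in these 4 comparisons, and the list's median log2 fold changes lay between -0.02 and 0.10. Srxn1, sulfiredoxin, which restores overoxidized peroxiredoxins, rose by 0.56 in chow renin and 0.45 in HFD renin against chow control, and by 0.36 in HFD renin against HFD control. Cat, peroxisomal catalase, rose by 0.37 in HFD renin against chow control, from 196.2 ± 8.7 to 253.4 ± 23.8 CPM, and stood at 242.9 ± 28.9 CPM in HFD control. Gpx8, a peroxidase of the endoplasmic reticulum, rose by 0.35 in HFD renin against chow control. It also rose by 0.30 against HFD control and by 0.29 against chow renin. Txnrd1, the cytosolic counterpart of Txnrd2, rose by 0.20 in chow renin against chow control and by 0.19 in HFD renin against HFD control. Gclc, of glutathione synthesis, rose by 0.34 in chow renin against chow control and was lower by -0.36 in HFD renin than in chow renin, and Sod3, the extracellular dismutase, rose by 0.44 between those groups. The neuron (8 of 8) and oligodendrocyte (6 of 6) markers were called in the same directions as Gclc in these comparisons, and their part in the values of Gclc, Srxn1, Txnrd1, Mthfd2 and Mthfd1l in chow renin, and in the interactions of Nadk2, Aldh1l2 and Msrb3, was not tested. Sod1, Txn1 and Prdx6, which act largely in the cytosol, were called in no comparison.

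Among the 7 genes, log2 levels over the 21 libraries ran together most for Sod2 and Txn2 (Pearson r = 0.89) and for Sod2 and Prdx3 (0.80), and least for Nnt and Gpx4 (-0.38). Over 8093 other genes of at least 10 CPM, the genes most like Nnt were Fgf13, Acss1 and Aldh6a1 (r = 0.95, 0.95 and 0.92). Those most like Sod2 were Slc25a3 and Vdac3 (0.94 and 0.94), most like Prdx5 Atp5h and Ndufs6 (0.95 and 0.95), and most like Prdx3 Sucla2 and mt-Co1 (0.92 and 0.92). Txn2 was most like Chchd2 and Fastk (0.92 and 0.92), Gpx4 most like Nudt9 and Dnlz (0.89 and 0.86) and Txnrd2 most like Map1lc3b and Rgl3 (0.80 and 0.77). These libraries share groups, normalization and depth, and no p is given.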

How the data were processed

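RNA of 21 hearts was quantified per transcript by the authors with Salmon 1.10.2, per the submitters' processing notes, which also name DESeq2 1.40.2 and GRCm38 (mm10). The deposited transcript tables give estimated counts, not normalized, and TPM, which corrects for effective length. The deposited gene matrix gives a normalized signal per library, and the log2 fold change with its adjusted p-value that the authors computed, per the file headers. Each of its 21 columns matched its own library best.

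Transcripts were matched to GENCODE M21 (97.95% of 119215), and 0.854% to 0.925% of a library's reads were left out as unmatched. Gene sums of the estimated counts were rounded, with both Nnt genes as 1 row. edgeR 4.0.16 (R 4.3.3) with TMM, filterByExpr and a quasi-likelihood test over all 21 libraries gave log2 fold changes, with Benjamini-Hochberg adjustment over 15215 genes and calls at 0.05. The common biological coefficient of variation was 0.154. The fit was tested on simulated data. Shares were compared by two-sided exact permutation tests (scipy). DESeq2 1.42.0 and other settings were alternatives.

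The genes and lists were chosen with earlier results of these data known. Named genes were the 7 members, up to 3 called genes of each list and comparison with the largest change, 9 fixed counterparts, and the genes most alike. No 2 libraries of a group agreed within sampling noise (46 pairs). Library totals set the counting error only.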

Additional observations from a re-analysis of the deposited data

Results flagged for a closer look

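In HFD control replicate 6, the share of Nnt reads on ENSMUSG00000116207 was 68.5%, where the other 5 libraries of the group had 12.9% to 30.2%, so this library lay far from the rest. In the same library, Nnt-201 took 23.5% of the reads of the 3 main transcripts, against 4.38% to 7.94%. ENSMUSG00000025453 stood at 613.5 CPM in chow control replicate 3, against 825.2 to 831.9 CPM in the other 3 chow control libraries. Chance alone sets such a library apart in about 1 of 20 groups, and it was seen in 3 of 48 groups examined.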

How the results depend on the processing

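Of 918 alternative values of single-gene differences, 835 kept their direction and their side of the threshold, and 9 moved past it. A further 47 lost a call, and 27 changed sign, none of them called. In chow renin against chow control, 2 of 7 genes were called, 0 with the clock score or the nervous tissue score as covariate, 1 with a minimum of 20 CPM, which removed Txnrd2, and 1 to 2 with a library left out. In HFD renin against chow control, 1 was called, 0 with the Nnt genes kept apart or with the clock score, and 0 to 2 with a library left out. With the Nnt genes kept apart, only the larger one was counted among the 7, here and in the other comparisons. In HFD renin against chow renin, 2 were called, 0 with the clock score, with the nervous tissue score or with no low-count filter, 1 with the Nnt genes kept apart, with effective-length offsets, with a minimum of 20 CPM, with upper-quartile factors or with mitochondrially encoded genes left out, and 0 to 1 with a library left out. In HFD renin against HFD control, 1 was called, 3 with DESeq2, upper-quartile factors or a minimum of 20 CPM, 0 with effective-length offsets or the clock score, and 0 to 2 with a library left out. HFD control against chow control and the interaction kept 0 calls under every alternative. The clock score differed between groups (66.9% of its variance), as did the nervous tissue score (90.3%), so that covariate and group are hard to separate and the cause of each change was not tested.

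Uncalled differences that changed sign were small. With the clock score, Prdx3 (0.014) and Txnrd2 (0.054) in HFD renin against chow control, Txnrd2 in HFD renin against HFD control (0.035) and Txnrd2 in HFD control against chow control (0.019) turned positive. With the nervous tissue score, Gpx4 in chow renin against chow control was 0.030 and the interaction of Sod2 was -0.0054. With a minimum of 20 CPM, Prdx3 between the renin groups was -0.00089 and its interaction was -0.060, and with upper-quartile factors that interaction was -0.037. Keeping the Nnt genes apart gave an interaction of 0.017 for the larger one, ENSMUSG00000025453. The smaller one, whose fitted interaction is not given here, stood at 231.8 CPM in chow control and 196.3 in chow renin. On the high-fat diet it stood at 247.8 CPM in HFD control and 86.6 in HFD renin. Effective-length offsets gave Txnrd2 0.0050 in HFD renin against HFD control. Leaving out mitochondrially encoded genes gave Sod2 -0.0018 in HFD control against chow control. With a library left out, values in that comparison spanned -0.049 to 0.038 for Sod2, -0.026 to 0.081 for Gpx4 and -0.045 to 0.020 for Txnrd2, and the interaction of Prdx3 spanned -0.024 to 0.052.

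With a library left out, the difference in the share of the nuclear Gpx4 transcript ran from -0.17 to 0.19 percentage points in chow renin, from -0.34 to 0.019 in HFD control and from -0.21 to 0.16 in HFD renin against chow control, and from -0.12 to 0.031 between the renin groups. The difference in the share of Nnt reads on the smaller gene ran from -3.43 to 0.57 in chow renin and from -1.07 to 10.1 in HFD control against chow control. For HFD renin it ran from -15.2 to -8.93 against chow control, from -13.2 to -7.07 against chow renin and from -21.9 to -10.5 against HFD control. Its adjusted p by the exact permutation test passed the threshold in all 3 without HFD renin 4.

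The replicate numbers were tried as a block. Same-numbered libraries did not all deviate together (17 of 28 pairs correlated above 0.1, range -0.28 to 0.50, median 0.14 against -0.01 for other pairs), so the numbers were not taken to pair them, although most such pairs leaned together. With the replicate block the counts of called genes stayed at 2, 0, 1, 1, 2 and 0 of 7, and Gpx4 (-0.027) and Sod2 (-0.0030) in HFD control against chow control changed sign. Over all genes, the counts of calls that differed by over 1.5 times were these. In chow renin against chow control (2048), a minimum of 20 CPM (5564 genes tested) gave 193 and the nervous tissue score 38. Between the renin groups (3442) these gave 956 and 41, and for the interaction (1589) 178 and 24. The clock score gave 0 in HFD renin against chow control (1267) and against HFD control (1696), where effective-length offsets gave 1068. It gave 5 in HFD control against chow control (10), where DESeq2 gave 124, the nervous tissue score 76, a minimum of 20 CPM 3, effective-length offsets 3 and the block 0. At 12.5 to 16.5 CPM, Txnrd2 had the fewest reads of the 7 genes.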
